A study of Mus musculus with 78 samples.

Results

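A group of 8 genes of the vascular endothelium, the cell layer that lines blood vessels, were followed across sorted neurons and microglia of the adult mouse retina: Cldn5, Esam, Pecam1, Cdh5, Abcb1a, Flt1, Kdr and Tek. They were chosen by symbol, as the probe sets of the array table that carry one of these symbols and no other, and each of the 8 had 1 probe set among the 19301 genes with a single symbol. The study sorted fluorescent cells from 22 transgenic mouse lines, 200 cells per sample after a papain dissociation of 15 min, and measured them on 78 Affymetrix Mouse Gene 1.0 ST arrays in 26 sets of 3 replicates labelled biological. Values are the deposited array intensities on a linear scale, and no line was labelled as endothelial.

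The endothelial cells of retinal vessels form the inner blood-retinal barrier, in which tight junctions close the gaps between neighbouring cells and transporters control what crosses them. Cldn5 is the main claudin strand protein of those tight junctions, Esam and Pecam1 are immunoglobulin-family adhesion molecules of endothelial contacts, and Cdh5 is the cadherin of endothelial adherens junctions. Abcb1a encodes P-glycoprotein, a drug efflux pump of the vessel wall, while Flt1 and Kdr are receptors for VEGF and Tek is the receptor for angiopoietins.

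Fluorescent cells came from GFP or RFP reporters. The rod sets were b2-Cre × Rosa26-LSL-RFP (sets b2 1st, b2 2nd and b2 single), and the cone sets were Tg(Chrnb4-EGFP)1Gsat and d4-Cre × Rosa26-LSL-RFP. Horizontal cells came from Tg(Gja10-Cre, #14)BR crossed to Rosa26-LSL-RFP. Bipolar cells came from mGlur6-Cre and Kcng4-CreERT2 mice crossed to the same reporter, and from the Pcp2-EGFP and Lhx4-EGFP lines. Amacrine cells came from EGFP lines of Arc (sets 1st, 2nd and 3rd), Igfbp2, Rgs5, Chrna3, Fam81a, Fbxo32 and Ier5, and from Crh-Cre and Chat-Cre mice crossed to Rosa26-LSL-RFP. Ganglion cells came from PV-CRE x ThyStopY, Tg(Drd4-EGFP)W18Gsat/Mmnc, Tg(Grik4-Cre)G32-4Stuj crossed to Rosa26-LSL-RFP and mOpn4-Cre1D4 crossed to the same reporter, and microglia from Tg(Csf2rb2-EGFP)334Gsat. A gate on GFP or RFP takes whatever the driver labelled, and a Cre reporter also keeps cells whose driver was active earlier in life. The Drd4 line is named for EGFP, but its description gives RFP. MMRRC mice had carried a recessive photoreceptor degeneration mutation before their backcross. Batch 1 held 8 sets, batch 2 held 4, batch 3 held 11 (Grik4, Drd4, Opn4, Crh, Lhx4, Rgs5 and Csf2rb2 among them), and 3 sets (d4, Arc 2nd and Fbxo32) had no batch label. The median correlation of arrays within a set was 0.919 and the lowest 0.70, in Crh. Drd4, Lhx4, Chrna3 and Chrnb4 also held a pair of arrays below 0.8. All 78 arrays had the same distribution of values, with a median of 9.01. On 70 of the 78 arrays the lowest values held a run of at least 10 in the order of their probe numbers. The longest run, 2342 values on Drd4 replicate 1, ended at 3.99. On the other arrays the run ended lower, from 0.025 on b2 1st replicate 1 to 3.72 on Crh replicate 2. The order of values within a run carries no information. As a cautious limit, 3.99 was taken as a common floor on every array. The main tests below used values that were not raised to this floor.

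The 250 bases upstream of the gene start are shown for Cldn5, the gene with the widest range between sets, and for Abcb1a, which stood highest in the same 2 lines. They come from RefSeq on build GRCm38.p6 (chr16:18776597-18776846 and chr5:8566841-8567090, both on the plus strand), and the array annotation used mm9. Windows were found for 5 of the 8 genes. Capitals mark forms of the ETS core (AGGAAG or its relative CCGGAA) together with the KLF box (CACCC), each searched on both strands.
Cldn5: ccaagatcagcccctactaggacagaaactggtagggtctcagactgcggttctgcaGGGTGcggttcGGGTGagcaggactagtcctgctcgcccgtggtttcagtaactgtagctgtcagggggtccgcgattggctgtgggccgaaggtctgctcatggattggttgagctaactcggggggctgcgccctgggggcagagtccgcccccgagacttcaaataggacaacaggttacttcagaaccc
Abcb1a: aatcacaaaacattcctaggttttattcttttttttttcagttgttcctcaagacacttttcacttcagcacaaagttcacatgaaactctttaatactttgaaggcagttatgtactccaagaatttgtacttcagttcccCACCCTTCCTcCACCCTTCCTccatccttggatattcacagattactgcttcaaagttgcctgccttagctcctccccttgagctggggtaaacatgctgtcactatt
The Cldn5 window held 2 CACCC boxes, both on the minus strand, and 1 GC box (GGGCGG), with a GC content of 59.6%. The Abcb1a window held 2 copies of AGGAAG on the minus strand, each sharing 1 base with a CACCC box, 1 ACAAAG (a SOX form) and no GC box, with a GC content of 40.4%. Over 32851 windows of the same length, CACCC was found in 52.0%, AGGAAG in 29.5%, GGGCGG in 32.7% and ACAAAG in 16.5%. The pair shared the CACCC letters, which are common among windows of this length.

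Cldn5 was bright in the Grik4 and Drd4 ganglion sets and dim in most others. Its intensities were 755, 943 and 443 on the Grik4 arrays (geometric mean 681, SD 0.56 on the log2 scale, n = 3) and 522, 241 and 99.3 on the Drd4 arrays (geometric mean 232, SD 1.20). All 72 arrays of the other 24 sets lay below the lowest Grik4 array, and 70 of them below the lowest Drd4 array. Those 72 arrays ran from 4.05 to 194 with a median of 8.40.

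In 4 further sets Cldn5 was high on 1 or 2 arrays and low on the rest. Crh gave 7.10, 194 and 35.1, Rgs5 gave 20.7, 80.9 and 10.3, Lhx4 gave 86.8, 10.8 and 11.6, and Opn4 gave 100.2, 11.4 and 7.01. Their geometric means were 36.5, 25.9, 22.1 and 19.98, with log2 SDs from 1.51 to 2.39, and the order of these 4 sets did not exceed their spread. The next set was Pcp2 at 11.1, and the lowest were Igfbp2 at 6.29 and Csf2rb2 at 6.16. The median log2 SD over all sets was 0.25, so the spread of these 4 sets was well above that of a typical set.

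Esam had the same 3 sets on top. It measured 42.5, 55.7 and 30.5 in Grik4 (geometric mean 41.6), 34.0, 24.4 and 12.3 in Drd4 (21.7), and 6.24, 36.2 and 12.2 in Crh (14.0). The other 24 sets had a median array of 7.10, and 71 of their 72 arrays lay below the lowest Grik4 array, the exception being the bright Crh array. Kcng4 followed at 12.6, Opn4 at 12.2 and Chrna3 at 11.5, where 1 array reached 20.7. The Grik4 and Drd4 ranges overlapped, as did those of every neighbouring pair down to Chrna3.

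Abcb1a, the efflux pump, spanned a narrower range. It measured 29.3, 32.8 and 24.4 in Grik4 (geometric mean 28.6) and 21.4, 16.6 and 14.1 in Drd4 (17.1), ranges that did not overlap. Lhx4 came next with 18.4, 14.7 and 9.81 (13.9), and its range overlapped that of Drd4. At the other end, Chrna3 amacrine cells gave 3.92, 6.31 and 4.21, a geometric mean of 4.71 with 1 array at the floor, and the next lowest set was Crh at 7.89. The remaining set means lay between these values, 17 of the 26 above the median of all array values.

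**Figure D1:**
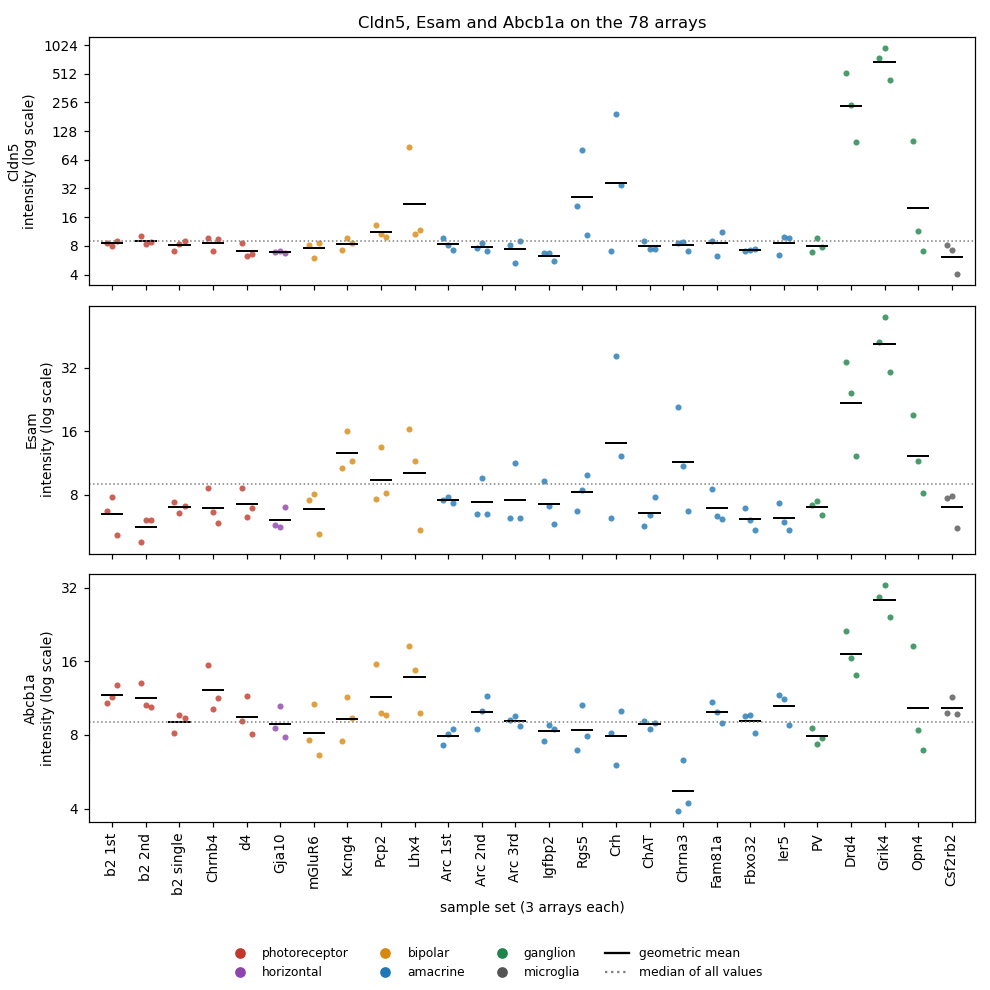
Intensity of Cldn5, Esam and Abcb1a on each of the 78 arrays by set (log axis); points are arrays coloured by labelled cell class, bars are geometric means of 3 arrays and the dotted line is the median of all values, 9.01. The 3 Grik4 arrays of Cldn5 lie at 443 to 943, the single high arrays of Crh, Lhx4, Rgs5 and Opn4 at 80.9 to 194, and Chrna3 is lowest for Abcb1a.

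Pecam1 was near the median intensity and differed little between sets. It measured 14.9, 8.37 and 8.65 in Drd4 (geometric mean 10.2) and 11.8, 11.7 and 7.54 in Grik4 (10.2), and these were the only set means above the median of all values. The other 24 set means lay between 5.52 and 7.80.

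The VEGF receptors were also highest in these lines, with smaller gaps. Flt1 measured 22.1, 11.3 and 9.41 in Drd4 (13.3) and 13.1, 14.2 and 11.1 in Grik4 (12.7), against 7.13 to 11.8 for the other set means. Kdr measured 18.8, 12.7 and 9.15 in Drd4 (12.9) and 8.42, 11.97 and 9.25 in Grik4 (9.77), against 5.66 to 8.91. Single arrays of the other 24 sets reached 17.1 for Flt1 and 12.3 for Kdr. All 3 Grik4 arrays of both receptors lay inside those ranges, as did 2 of the 3 Drd4 arrays of Flt1 and 1 of the 3 of Kdr.

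Tek and Cdh5 were at the dim end everywhere, and neither had a set mean above the median of all values. Tek was 5.34, 8.44 and 4.97 in Grik4 (6.07) and 7.81, 6.42 and 4.35 in Drd4 (6.02), first and second of 26, but 14 of its 78 arrays were at or below 3.99. Cdh5, the junctional cadherin, ran otherwise. Its highest sets were Crh (5.13, 8.03 and 6.79; geometric mean 6.54) and Csf2rb2 (6.52), while Drd4 ranked 11th (6.84, 4.21 and 5.36) and Grik4 23rd (4.60, 5.18 and 4.40). Not one Cdh5 array exceeded the median.

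**Figure D2:**
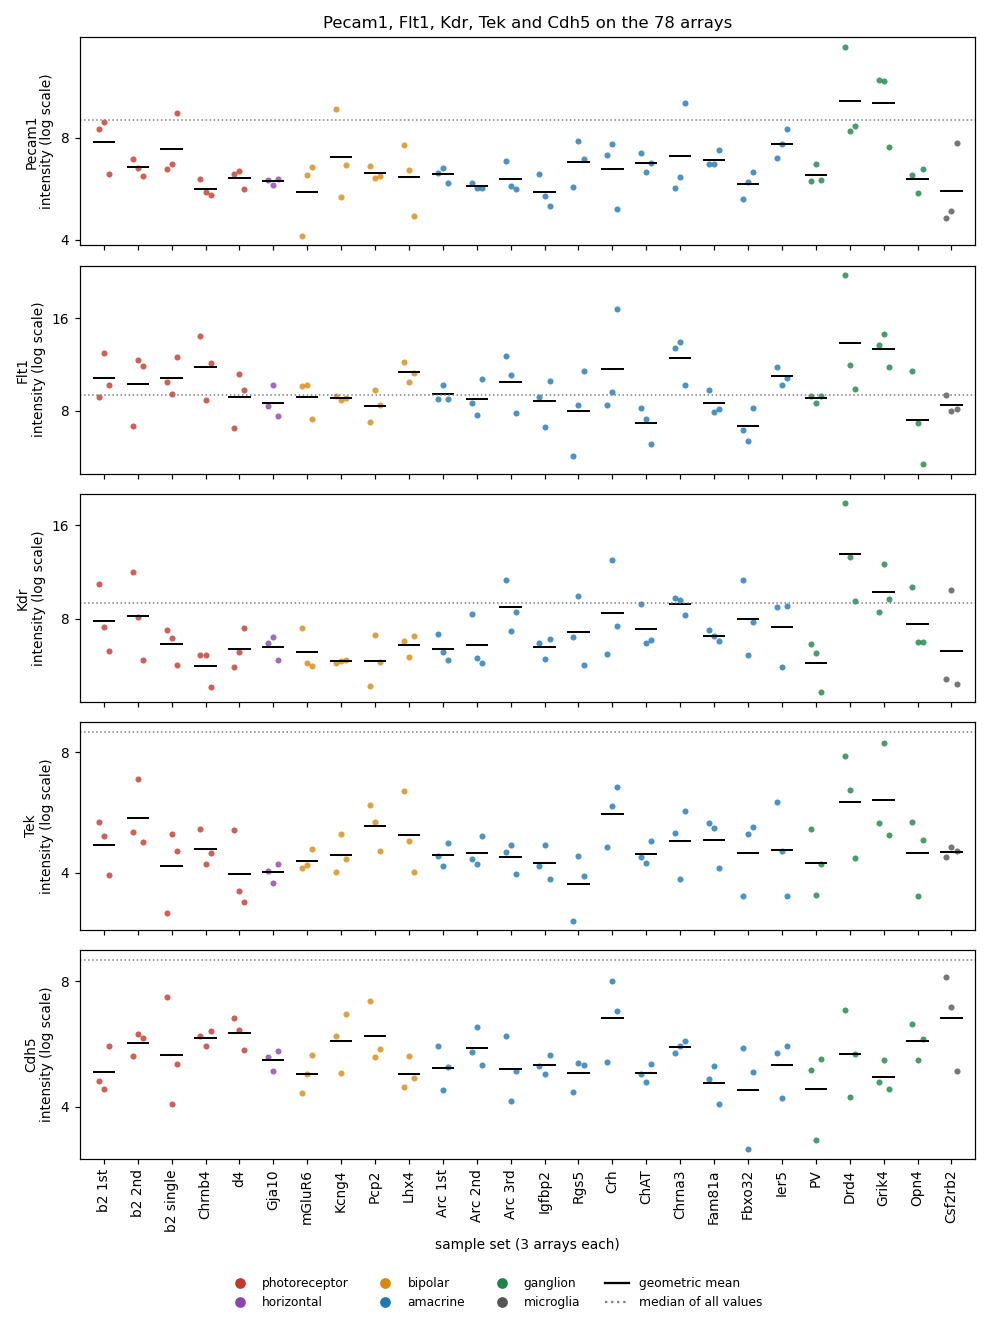
Intensity of Pecam1, Flt1, Kdr, Tek and Cdh5 on each of the 78 arrays by set (log axis), with points, bars and dotted line as for the brighter genes. Drd4 and Grik4 hold the top 2 set means for the first 4 genes, whereas Cdh5 has Grik4 in 23rd place.

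Each line was then set against the unweighted mean of the other 21 lines in one limma fit over all arrays. Each line is also part of the reference of every other line, so these comparisons share arrays. A gene was called at an adjusted p below 0.05 (Benjamini-Hochberg over the genes tested) and a log2 difference of at least 1. The fit tested 15102 genes with a set mean above the median intensity, among them 6 of the 8. Cdh5 and Tek were left out as dim, and Pecam1 and Kdr entered only through their Grik4 and Drd4 means, so their presence in the test already requires a high value there. In bulk samples, fewer endothelial cells and less endothelial RNA per cell cannot be told apart.

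In Grik4, 3 genes were called higher, where 4.09% of all genes tested were. Cldn5 was 59.1-fold higher (log2 difference 5.88, SE 0.48, adjusted p = 1.0e-14), Esam 4.96-fold (2.31, SE 0.27, adjusted p = 1.6e-09) and Abcb1a 3.00-fold (1.59, SE 0.17, adjusted p = 1.7e-10). All 3 Grik4 arrays were above the mean of the other lines for each of them. The differences of Pecam1 (0.65), Flt1 (0.47) and Kdr (0.46) did not reach the fold required.

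In Drd4, Cldn5 was 19.1-fold higher (4.26, SE 0.48, adjusted p = 6.2e-10) and Esam 2.50-fold (1.32, SE 0.27, adjusted p = 1.2e-04), where 5.21% of genes tested were called higher. The Drd4 arrays had a log2 SD of 1.20 for Cldn5, a spread that the shared SE understates. Esam fell to a log2 difference of 1.00, just under the required size, when Drd4 replicate 1 was left out. Kdr (0.89), Abcb1a (0.81), Pecam1 (0.67) and Flt1 (0.54) passed on adjusted p alone, at 1.2e-04, 2.1e-04, 6.2e-04 and 0.013, and missed the fold.

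In Crh, Cldn5 was 2.75-fold higher (1.46, SE 0.48, adjusted p = 0.011), in a line where 6.28% of genes were called higher. The Crh arrays themselves had a log2 SD of 2.39 for Cldn5, a spread that the shared SE understates. That value came from 2 of 3 arrays: it was 0.25 without Crh replicate 2 and 2.64 without replicate 1. With batch as a term (Arc 2nd taken as batch 2) the difference stayed at 1.43 and the adjusted p was 0.054.

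Calls below the other lines were made for 2 genes. Abcb1a in Chrna3 was lower by 1.14 (SE 0.17, adjusted p = 8.6e-07; 5.95% of genes were called lower there). Within batch 2 the 3 Chrna3 arrays, at most 6.31, lay below all 9 arrays of the other sets, which ran from 6.65 to 13.0, a difference in set means of -1.001. Cldn5 in the Csf2rb2 microglia was lower by 1.23 (SE 0.48, adjusted p = 0.046), where 8.32% of genes were called lower. That difference shrank to -0.72, with no call, once Grik4 and Drd4 were taken out of the reference. No gene of the 6 was called in the other 17 lines, where 4.65% of genes tested were called in either direction (1.45% to 16.7% by line).

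**Figure D3:**
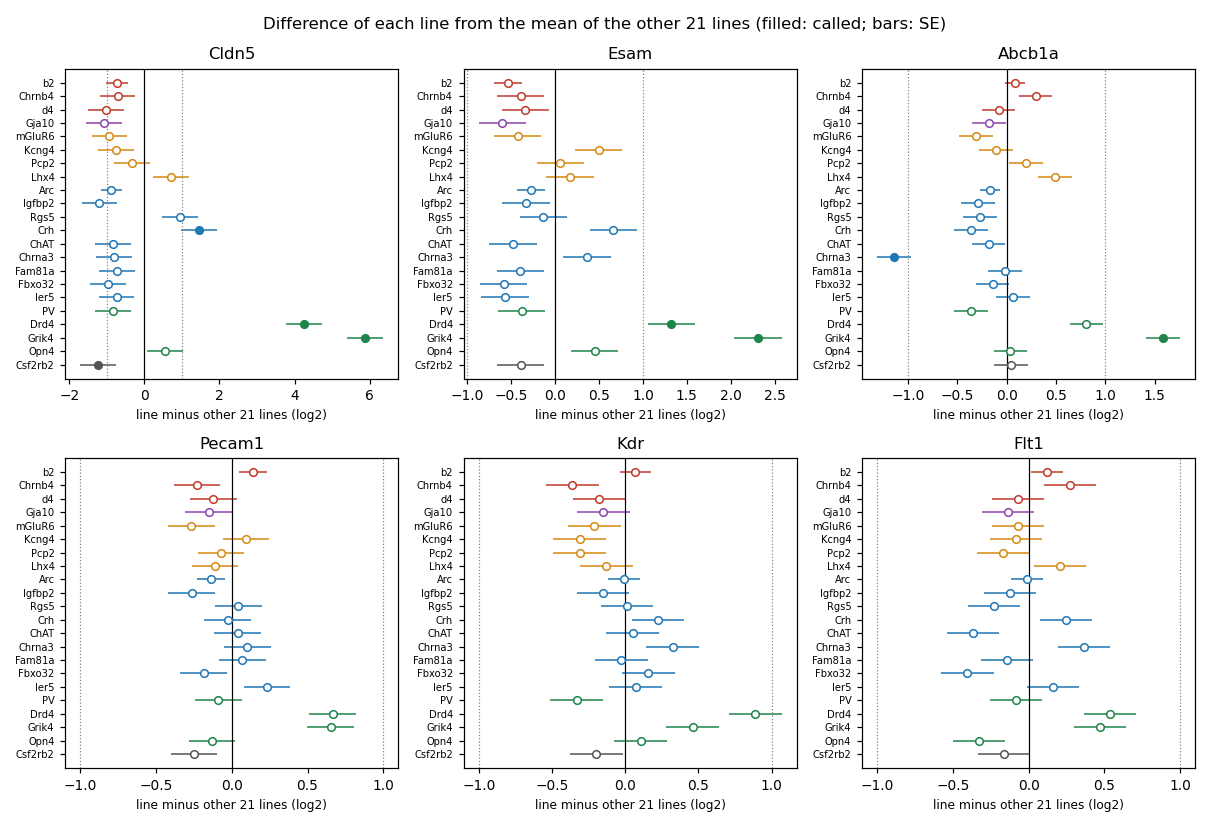
Log2 difference of each line from the mean of the other 21 lines for the 6 genes tested; points are estimates coloured by cell class, filled where called, bars are standard errors and dotted lines mark a difference of 1 in either direction. Grik4 and Drd4 stand to the right for Cldn5, at 5.88 and 4.26, and for Esam, at 2.31 and 1.32, and Chrna3 to the left for Abcb1a, at -1.14.

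Arc and b2 cells were each measured in 3 sets, which were compared with each other. Over the 3 pairs of Arc sets and the 3 pairs of b2 sets, 0 of 36 limma tests were called and 0 had an unadjusted p below 0.05. Over these 6 comparisons 0.98% of all gene tests were called, from 0.053% to 2.08% by pair. The largest difference of any of the 6 genes was 0.44 (Kdr, Arc 3rd over Arc 1st), and for Cldn5 the Arc differences were 0.11, 0.18 and 0.07 with an SE of 0.66. In these 6 sets Cldn5 had set means of 7.34 to 9.04, and Esam, Pecam1 and Kdr were below the median intensity, so the pairs do not show how far these genes vary between repeated sets where they are bright.

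The 4 ganglion lines differed among themselves. PV cells had Cldn5 at 6.82, 9.65 and 7.86, near the median of 8.40 over the sets other than Grik4 and Drd4. PV was lower than Grik4 in Cldn5 (log2 difference -6.41, SE 0.66, adjusted p = 1.1e-10), Esam (-2.57, SE 0.37, adjusted p = 1.2e-06) and Abcb1a (-1.86, SE 0.24, adjusted p = 4.6e-08), where 3.3% of genes were called lower. PV was also lower than Drd4 in Cldn5 (-4.85), Esam (-1.63), Kdr (-1.16) and Abcb1a (-1.12), where 4.53% were. The last 2 calls were lost without Drd4 replicate 1, at differences of -0.90 and -0.95. Kdr was tested only because of its high Drd4 and Grik4 means, so its call here gives no independent support. PV was in batch 1 and the other ganglion lines in batch 3. In a fit with batch as a term, added after seeing the data and linked through the Arc and b2 sets with Arc 2nd taken as batch 2, the 3 calls against Grik4 were kept, Cldn5 at -6.55. Against Drd4 only Cldn5 was kept (-5.00, adjusted p = 7.7e-04), and Esam (-1.63), Abcb1a (-1.06) and Kdr (-0.76) had adjusted p of 0.079, 0.079 and 0.23.

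Opn4 cells were in the same batch as Grik4 and Drd4. Grik4 exceeded Opn4 in Cldn5 (5.09, adjusted p = 1.6e-07), Esam (1.77, adjusted p = 0.0018) and Abcb1a (1.48, adjusted p = 1.8e-05), with 1.24% of genes called in that direction. Esam lost its call without Opn4 replicate 3, at 1.49. Drd4 exceeded Opn4 in Cldn5 (3.54, adjusted p = 3.2e-04), with 1.85% of genes called in that direction. Their Cldn5 ranges overlapped, with the lowest Drd4 array at 99.3 and the highest Opn4 array at 100.2. The log2 SDs were 1.20 in Drd4 and 2.04 in Opn4, a spread that the shared SE understates in every Cldn5 comparison with these sets. PV against Opn4 and Drd4 against Grik4, where 1.99% of genes were called in either direction, gave no call. Between PV and Opn4, Cldn5 differed by -1.32 (95% interval -2.64 to 0.003). Between Drd4 and Grik4, Cldn5 differed by -1.55 (interval -2.87 to -0.23), Esam by -0.94 and Abcb1a by -0.74, with adjusted p of 0.20, 0.16 and 0.067. At an unadjusted p below 0.05 these 2 limma comparisons held 1 and 3 of the 6 genes.

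Within batch 3 alone, each set was compared with the other 10. Grik4 kept Cldn5 (5.36), Esam (2.07) and Abcb1a (1.51), where 2.29% of genes were called higher, and Drd4 kept Cldn5 (3.65) and Esam (1.04; adjusted p = 0.0045), where 3.41% were. Esam in Drd4 dropped below the fold without Drd4 replicate 1 (0.71) or 2 (0.95), Lhx4 replicate 3 (0.99) or Crh replicate 1 (0.98). Crh was not called for Cldn5 here (0.71), nor were the 6 genes in Lhx4, Rgs5 and Opn4; over these 4 sets 6.16% of genes were called in either direction. Cldn5 was called lower in Gja10, Kcng4, Arc 3rd, Igfbp2 and Csf2rb2, with differences from -1.62 to -2.107, where 2.35%, 3.33%, 1.03%, 0.848% and 10.1% of genes were. These 5 calls were all lost when Grik4 and Drd4 were left out of the reference, with differences from -0.63 to -1.13.

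In some sets the array with the highest Cldn5 was also the highest of its 3 for other genes of the group. This held for 7 of the other 7 genes on Drd4 replicate 1 and for 6 each on Grik4 replicate 2 and Opn4 replicate 1. It held for 5 in Lhx4, 5 in Rgs5 and 4 in Crh. In the remaining 20 sets the count ran from 0 to 5 with a median of 2, so the 5 of Lhx4 and Rgs5 and the 4 of Crh lie within the range of those sets. Drd4 replicate 1, Grik4 replicate 2 and Opn4 replicate 1 also had the longest run of lowest values of their sets (2342, 1160 and 190). So did the bright Lhx4 and Crh arrays (673 and 1853), but not the bright Rgs5 array (19). Whether this difference between arrays bears on the shared highs was not tested. The bright Crh array had Cldn5 at 194 and Esam at 36.2, but Abcb1a at 6.02, the lowest of its 3. The bright Rgs5 array had Cldn5 at 80.9 and Esam at 8.45, within the range of the dim sets.

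**Figure D4:**
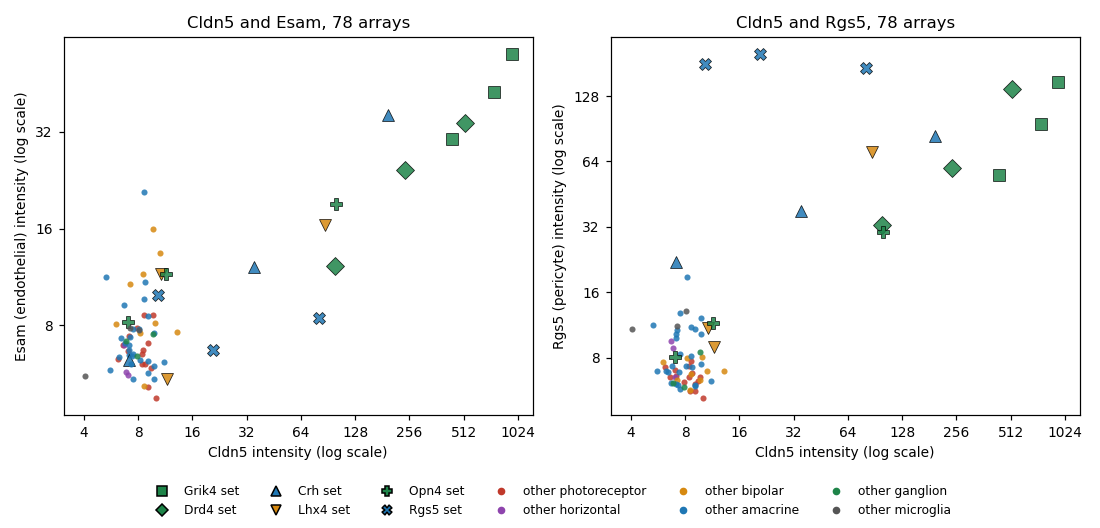
Cldn5 intensity against Esam (left) and against the pericyte gene Rgs5 (right) on each of the 78 arrays, both axes logarithmic; large symbols are 6 named sets and small points all other arrays, coloured by cell class. Arrays with Cldn5 from 241 to 943 have Esam from 24.4 to 55.7, and the 3 arrays of the Rgs5 line have Rgs5 at 172 to 199 with Cldn5 from 10.3 to 80.9.

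Across the 22 line means, with values raised to 3.99, the median Pearson r over all pairs of the 8 genes was 0.61, and it was 0.20 over the 20 lines without Grik4 and Drd4. Cldn5 and Esam had the highest r, 0.91. Cdh5 had a median r of -0.09 with the others. These are descriptions over line means that share the same arrays.

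Among all other genes, those closest to the mean profile of the 6 genes tested over the 22 lines were Ctla2a (r = 0.97), Sox17 (0.96), Slco1a4 (0.95), Slco1c1 (0.94), Pltp (0.94), Adgrl4 (0.94), Id3 (0.93), Tm4sf1 (0.93), Fam110c (0.91) and Sox18 (0.91). Sox17 and Sox18 are transcription factors of endothelial cells, and Slco1a4 and Slco1c1 are organic anion transporters of brain and retinal vessels. Without Grik4 and Drd4 the r was 0.85 for Ctla2a, 0.83 for Slco1a4 and 0.77 for Sox17, but 0.37 for Fam110c. For single genes, Cldn5 was nearest to Ctla2a (0.97), Slco1a4 (0.95) and Sox17 (0.95), and Esam to Id3 (0.94), Ctla2a (0.92) and Emcn (0.91). Pecam1 was nearest to Shisal2b (0.89), Sox17 (0.84) and Tff2 (0.83), and Abcb1a to Gsg1l2 (0.86), Vsig2 (0.84) and Tectb (0.84). Flt1 was nearest to S100a16 (0.81), Maob (0.78) and Heg1 (0.78), and Kdr to Racgap1 (0.87), Cp (0.85) and F3 (0.84). Without Grik4 and Drd4 the r of these single-gene neighbours ran from 0.34 (Pecam1 with Sox17) to 0.83 (Cldn5 with Slco1a4). It was 0.78 for Esam with Id3, 0.63 for Pecam1 with Shisal2b, 0.65 for Abcb1a with Gsg1l2, 0.69 for Flt1 with S100a16 and 0.68 for Kdr with Racgap1.

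The 7 lists of other endothelial and barrier genes, 95 in all, had 90 in the table and 79 tested. In Grik4, 23 were called higher and 0 lower, with a median log2 difference of 0.35 against 0.03 over all genes, where 4.09% were called higher and 3.95% lower. The 3 largest were Itm2a, a membrane protein of vessel endothelium (4.88, SE 0.55), Pltp, a phospholipid transfer protein (3.56, SE 0.36), and Ramp2, the co-receptor for adrenomedullin (3.34, SE 0.38). Itm2a measured 455, 562 and 291 in Grik4 and 554, 314 and 154 in Drd4, followed by Opn4 at 134, 91.5 and 83.5. In Crh its arrays were 5.64, 203 and 54.0, high on the same array as Cldn5. Elsewhere Itm2a was high where Cldn5 was dim. On Opn4 replicates 2 and 3 Cldn5 was only 11.4 and 7.01. In PV Itm2a measured 46.3, 26.9 and 50.6, with Cldn5 at most 9.65.

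By list, Grik4 had 12 of 22 endothelial surface genes higher, 6 of 13 barrier transporters, 2 of 8 tight junction partners, 2 of 12 transcription factors and 1 of 7 Notch genes. Emcn, Clec14a, Icam2, Cd34 and Eng were among the surface genes, at 2.27, 2.09, 1.41, 1.23 and 1.11. The transporters were Slco1c1 (2.94), Slco1a4 (2.87), the lipid carrier Mfsd2a (2.75), Abcg2 (2.30), the glucose transporter Slc2a1 (1.89) and Slc16a1 (1.78). Jam2 (2.30) and Lsr (1.04) were the junction genes, and Sox17 (1.65) and Sox18 (1.56) the transcription factors. Of the VEGF and angiopoietin list 0 of 8 were called, and of the norrin and Wnt list 0 of 9.

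Drd4 had 15 of the 79 higher and 5 lower and a median of 0.31 against 0.11 over all genes, where 5.21% were called higher and 8.76% lower. Lower calls were thus no more frequent on these lists than among all genes. Itm2a (4.37), Pltp (2.37), Ramp2 (2.21), Slco1c1 (1.99), Jam2 (1.90), Sox17 (1.35) and Sox18 (1.14) were among those higher. Those lower were Mcam (-1.72), Cgn (-1.49), Foxq1 (-1.18), Gata2 (-1.18) and Notch4 (-1.07), with the Drd4 mean of Mcam (log2 1.76) under the floor. Crh had 5 higher and 8 lower of the 79, where 6.28% of all genes were called higher and 11.6% lower. Both Crh counts were near those shares. Opn4 had 3 higher (Itm2a, Egfl7 and Vegfd) and 0 lower, where 3.14% of genes were called higher and 0.887% lower. Within batch 3, Grik4 had 21 higher and 0 lower, where 2.29% of all genes were called higher and 1.53% lower. Drd4 had 11 higher and 3 lower there, where 3.41% were called higher and 6.01% lower.

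Some markers of other cell types were also high in these samples. Over all genes tested, 4.09% were called higher and 3.95% lower in Grik4, and 5.21% and 8.76% in Drd4. In Grik4, 4 of 10 pericyte and smooth muscle genes tested were called higher (Higd1b 3.33, Rgs5 3.03, Acta2 2.67 and Kcnj8 2.08), 8 of 11 microglial genes, 4 of 10 Müller glia genes, 0 of 5 astrocyte genes and 4 of 8 pigment epithelium genes. Ttr, which encodes transthyretin and is on the pigment epithelium list, measured 339, 1593 and 518 there. The summed intensity of the whole list on the Grik4 arrays was 358 to 521 for pericytes, 484 to 1390 for microglia, 1395 to 4381 for Müller glia and 459 to 2994 for pigment epithelium. The medians of the set medians over the other 24 sets were 108, 108, 714 and 78.9 for these 4 lists. The highest single arrays of those sets reached 624, 9430, 5153 and 222, so the Müller glia sum of some other array exceeded every Grik4 array. For the astrocyte list that median was 45.3 and the highest array 88.9. In Drd4, 5 of 10 pericyte genes, 1 of 11 microglial genes (1 was lower), 7 of 10 Müller glia genes, 3 of 5 astrocyte genes and 2 of 8 pigment epithelium genes (1 was lower) were called higher, and the summed levels were 177 to 394, 113 to 294, 2210 to 8502, 75.6 to 92.0 and 162 to 499 for these 5 lists. The labelled class was present in both, with 8 of 9 ganglion cell genes higher in Grik4 and 9 of 9 in Drd4. Some markers of the other retinal neurons were called higher too, though a single call in lists this short says little beside the shares over all genes. In Drd4, 5 of 7 bipolar genes were called higher (Gng13 3.26, Scgn 2.64, Cabp5 2.60, Trpm1 1.80 and Isl1, which is also on the ganglion list), 2 of 6 rod genes (Gnat1 6.21 and Cnga1 5.14), 1 of 7 cone genes (Opn1mw 6.33; 1 was lower), 1 of 7 amacrine genes and 1 of 5 horizontal genes (1 was lower). In Grik4 these counts were 3 of 7 for bipolar genes (Scgn 2.54 among them), 1 of 6 for rod genes (Gnat1 4.36; Nrl was lower), 2 of 7 for amacrine genes, 0 of 7 for cone and 0 of 5 for horizontal genes. The summed bipolar level was 932.5 to 2843 in Drd4 and 389 to 1046 in Grik4, against a median of 153 over the other 24 sets. The summed rod level was 206 to 1266 and 39.9 to 159, against 89.96. For the rod and cone genes named as higher, the mean of the other lines was under the floor. In the Drd4 comparison that mean was log2 1.23 for Gnat1, -1.05 for Cnga1 and 0.69 for Opn1mw. In the Grik4 comparison it was log2 1.31 for Gnat1, and the Grik4 mean of Nrl (log2 1.72) was also under the floor. The sizes of these rod and cone differences therefore rest on values under the floor. The part of these other cell types in the endothelial values was not tested.

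The Rgs5 and Csf2rb2 lines had the highest summed pericyte and microglial levels of the 26 sets. The Rgs5 line, labelled amacrine, had 5 of 10 pericyte genes called higher (Higd1b 4.09, Rgs5 4.07, Acta2 3.84, Kcnj8 1.93 and Tagln 1.56), where 1.15% of genes were called higher. Its summed pericyte level was 538 to 624, above the range in Grik4. Its endothelial surface genes summed to 195 to 298, against 863 to 1631 in Grik4 and 506 to 1139 in Drd4, and none of the 6 endothelial genes was called there. The Csf2rb2 microglia had 11 of 11 microglial genes higher, where 8.09% of genes were, and Cldn5 at 8.09, 7.16 and 4.05. On the bright Crh array, Rgs5 was 83.5 and the summed pericyte level 232, against 131 on the array with Cldn5 at 7.10.

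**Figure D5:**
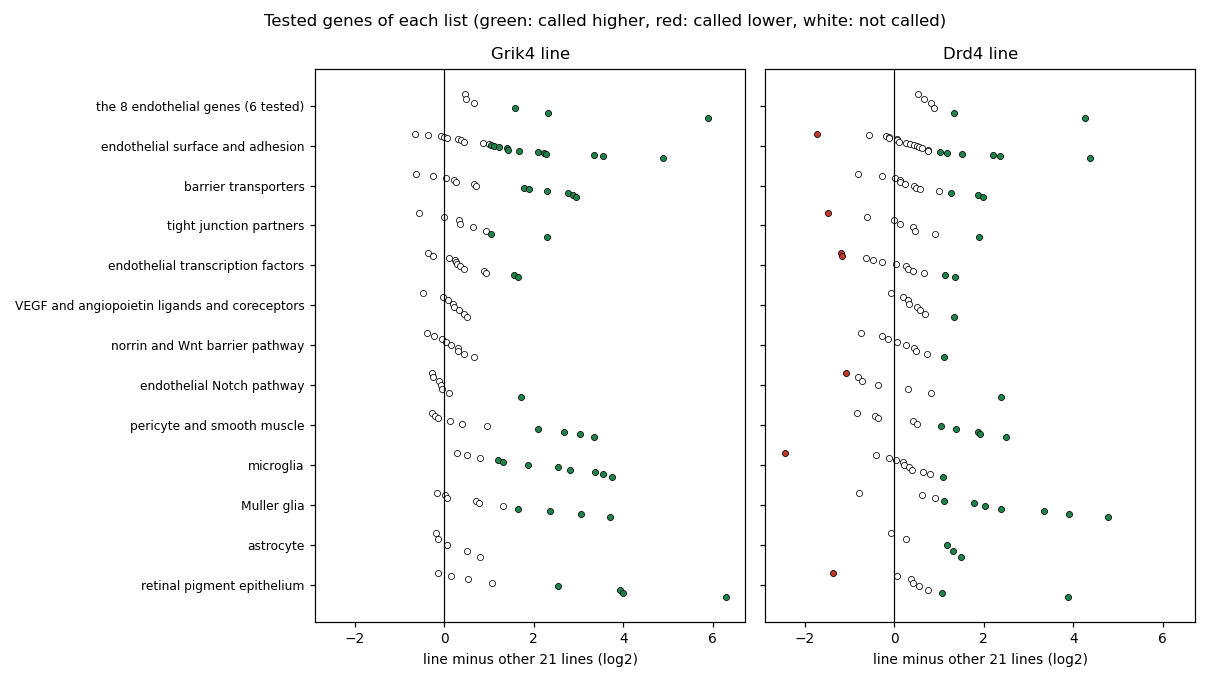
Log2 difference from the other 21 lines for every tested gene of each list, in Grik4 (left) and Drd4 (right); each point is a gene, green where called higher, red where called lower and white where not called. In Grik4, 12 of 22 surface genes and 6 of 13 transporters are green with 0 red among the endothelial lists, and in Drd4 5 endothelial list genes are red.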

How the data were processed

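Adult retina cells sorted from 22 lines were measured on 78 arrays. The authors' deposited table holds intensity values on a linear scale, made with RMA in oligo under R 2.11.1 against mm9, per the submitters' processing notes. The arrays had identical sorted values, so a level is relative within an array. Array number, 3 per set, limits the precision.

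Of 22347 probe sets, 19446 had 1 symbol, 735 several and 2166 none in the annotation used. Values were taken to log2, and genes with no set mean above 9.01 were left out (4199 genes). Set means were fitted with limma 3.58.1 in R 4.3.3 (lmFit, eBayes with trend) and p-values adjusted within each comparison over 15102 genes. Calls in Grik4 were tested on simulated data: 84% of genes changed by 1.5, 94% by 2.0 and 98% by 3.0 on the log2 scale were recovered. For Grik4 against Opn4 these shares were 62%, 86% and 90%, and for Arc 1st against Arc 2nd 72%, 90% and 96%. The simulated noise was independent and normal, with 1 spread per gene in all sets. In the data the spread differed by set, as for Cldn5 (log2 SD 0.03 in Fbxo32 and 2.39 in Crh). The shares therefore check the procedure and do not give recovery rates for these arrays.

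Named list genes were the 3 largest calls in a line with at least 3 of the 8 genes higher, and any called lower there. Further list genes were named after their values were seen. The 8 genes and the lists were chosen with earlier results of these data known. Alternatives concerned dim genes, normalization, probe set choice, replicate block, prior trend, floor, adjustment, reference lines, batch and single arrays. Replicate numbers did not pair arrays (mean residual r 2.1e-04).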

Additional observations from a re-analysis of the deposited data

How the results depend on the processing

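The limma line comparisons gave 8 calls among the 6 genes tested, 7 to 9 when single arrays were left out. The repeated sets gave 0 in every alternative run, the ganglion pairs 11 (9 to 14 without single arrays), and the batch 3 sets 10 (9 to 12). The 11 ganglion calls include Kdr between PV and Drd4, a gene tested only through its high Drd4 and Grik4 means. In batch 3 the calls fell to 6 without Grik4 and Drd4 in the reference, and to 6 without the lines of low array correlation. For batch 3 both references were chosen after seeing the data. The fit with the replicate number as a block gave 8, 0, 11 and 10 calls, with all 29 called comparisons kept, so the block changed no call.

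Of the 29 calls, 26 were kept under cyclic loess, which lost Cldn5 in Csf2rb2 (-1.19), Kdr between PV and Drd4 (-0.99) and Esam in Drd4 within batch 3 (0.95). The Csf2rb2 call was also lost with no filter on dim genes, with p adjusted over all lines, without any one Csf2rb2 array, without Fam81a replicate 3 and without PV replicate 2. The batch term kept 6 of 8 line calls and, added after seeing the data, 8 of 11 between ganglion lines. Within batch 3, Cldn5 was no longer called in Kcng4 or Arc 3rd without any one of their own arrays, or in Igfbp2 without replicate 2 or 3. No result changed direction in the alternatives run. Levels near 9.01 carry little signal over background, which limits Cdh5, Tek, Pecam1 and Kdr most.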
